A study of Mus musculus with 32 samples.

Results

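Hippocampal transcriptomes of double-mutant mice (DM) were compared with those of *Kmt2a* heterozygotes (*Kmt2a*-HET), so that the mice compared shared the loss of 1 *Kmt2a* copy and differed in whether *Kdm5c* was intact. All genes of the hippocampal table were considered, with spike-in sequences left out, and the comparison used 8 of the 32 libraries of the series, from 4 mice per genotype. Of 19316 genes with an adjusted *p*, 117 were called at an adjusted *p* under 0.1 (0.606% of those tested), of which 102 were higher (0.528%) and 15 lower (0.0777%) in DM. The genes called higher included an axonemal dynein gene (*Dnah1*), a ribosomal protein pseudogene (*Rps4l*), a calcium channel subunit (*Cacng6*), a tryptophan-degrading enzyme (*Ido2*) and genes that are normally active in germ cells (*Tex14*, *D1Pas1*, *Cyct*, *Hsf2bp*, *Ddx4*).

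DM were *Kmt2a*+/- and *Kdm5c*-/y, and *Kmt2a*-HET were *Kmt2a*+/- with an intact *Kdm5c*. All mice were adult males and F1 hybrids between 129S1/SvImJ *Kmt2a* heterozygous males and C57BL/6J females heterozygous for *Kdm5c*. WT and *Kdm5c*-KO (*Kdm5c*-/y) groups of the same cross had 2 intact *Kmt2a* copies, and amygdala was taken from the same mice as hippocampus. Both alleles were constitutive, so the loss was not limited to neurons or to the adult, and the tissue was dissected whole, so that fewer cells of a type and less RNA per cell cannot be told apart.

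KMT2A and KDM5C act in opposite ways on 1 chromatin mark. KMT2A (MLL1) is a methyltransferase that writes methyl groups on lysine 4 of histone H3 (H3K4), a mark of active promoters and enhancers, and KDM5C is an X-linked demethylase that removes them. Loss of KDM5C is known to let neurons transcribe genes that are normally kept silent outside the germline, and mutations of either gene cause neurodevelopmental disorders with intellectual disability in humans.

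The 8 libraries held 19322280 to 27799007 gene counts, with 21419 to 22910 genes detected and 0.11 to 0.254% of counts in spike-in RNA. At these depths the detection floor, set at 3 counts, equalled 0.108 to 0.155 CPM (library-size-scaled counts), a limit for counting error only. The 2 DM libraries of replicates 2 and 4 stood apart in choroid plexus markers, whose values are given beside the genes they touch, and leaving out both libraries reduced the number of calls from 117 to 81, with 64 genes in common. Levels are given below as normalised counts (counts divided by the DESeq2 size factor of the library), and differences as unshrunken log2 fold changes of DM against *Kmt2a*-HET with their standard errors and with *p* values from the DESeq2 Wald test, adjusted over all genes tested.

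The targeted genes were examined first. *Kdm5c* was counted at 1630.5, 1621, 1589 and 1732 in the *Kmt2a*-HET libraries and at 1343, 1430.5, 1331 and 1394 in the DM libraries. Every DM library lay below every *Kmt2a*-HET library, but the difference was small and was not called (log2 fold change -0.26 ± 0.0897 (SE), adjusted *p* = 0.352). With a replicate block the adjusted *p* was 0.0734, and with the block and a low-count filter 0.105. In *Kdm5c*-KO against WT the log2 fold change was -0.34, and *Kdm5c* was called lower (adjusted *p* = 0.0299). The counts cover the whole gene, including exons outside the deleted ones, so that the remaining reads do not measure functional transcript. *Kmt2a* ranged from 3289 to 6647 in *Kmt2a*-HET and from 2971.5 to 5854 in DM (log2 fold change -0.16), and since both groups carried the same allele it gives no check of the labels.

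The genes called higher changed by more than those called lower. The median log2 fold change was 1.22 among the 102 higher genes and -0.64 among the 15 lower genes, against -0.016 over all genes tested. Of the higher genes, 62 changed more than 2-fold, 25 more than 4-fold and 12 more than 8-fold, and of the lower genes 5 changed more than 2-fold. The median *Kmt2a*-HET level was 110 normalised counts among the higher genes, 491.3 among the lower genes and 235.8 over all genes tested, and 25 of the higher genes had a *Kmt2a*-HET mean under 20. These levels are a description only, since a low *Kmt2a*-HET value favours a call in the higher direction and a high one a call in the lower direction. In 95 of the 102 higher genes the 4 DM libraries lay above all 4 *Kmt2a*-HET libraries, a pattern that 2.03% of all genes tested showed, and in 12 of the 15 lower genes they lay below all 4, as in 1.31% of all genes tested. Since the genes were called on these same libraries, such separation follows largely from the calling and adds no support to it. Of the higher genes 88 were protein coding, 7 were lincRNAs and 3 were antisense RNAs, classes that made up 80.7%, 3.98% and 4.05% of all genes tested. The quasi-likelihood test of edgeR called 54 genes (0.315% of the 17127 it tested), 51 higher (0.298%) and 3 lower (0.0175%), all of them among the 117.

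*Dnah1* had the smallest adjusted *p*. It encodes a heavy chain of the inner dynein arm that moves cilia and sperm flagella and lies at chr14:31260375-31323896 (mm10, minus strand). It was counted at 170, 158, 226.5 and 167 in *Kmt2a*-HET and at 828, 781, 815 and 886 in DM. The 2 groups were separated by a wide gap, with little spread inside DM (log2 fold change 2.19 ± 0.131 (SE), adjusted *p* = 6.15e-59). Among the 15 axonemal dynein heavy chain genes, all of which were tested, *Dnah1* was the only one called, and the median log2 fold change of the 15 was 0.32, and -0.07 with 6 of 15 above 0 without DM replicates 2 and 4. *Dnah11* and *Dnah14* had estimates of 1.22 and 1.09 but adjusted *p* values of 0.696 and 0.323.

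Part of the *Dnah1* increase lay in a transcript annotated as non-coding. In the transcript table the processed transcript *Dnah1*-202 had values of 98.2, 74, 119.8 and 108 in *Kmt2a*-HET and 543, 495, 529 and 564 in DM, and the protein-coding *Dnah1*-201 had 74.8, 80.6, 101 and 49.8 and 299, 248.5, 276 and 306. Both were called (adjusted *p* = 6.6e-41 and 9.74e-20), and the processed transcript held 56.6% of the gene's value in *Kmt2a*-HET and 65.4% in DM. *Gm35823*, an antisense RNA whose gene overlaps *Dnah1*, was called as well at far lower counts (3.29, 5.66, 4.66 and 3.68 in *Kmt2a*-HET, 10.2, 17.6, 19.3 and 20.9 in DM, adjusted *p* = 0.0772). It was called in 1 of the 8 fits that leave out 1 library, and neither by edgeR nor without DM replicates 2 and 4. The strand setting of the counting is not given in the sources used here, so that reads of the 2 genes may not be told apart.

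*Rps4l*, at chr6:148354656-148355598, is annotated as a transcribed processed pseudogene of the ribosomal protein gene *Rps4x* and lies on the opposite strand of *Tmtc1*. It was counted at 318, 320.3, 408 and 215 in *Kmt2a*-HET and 1838, 1279.6, 1483 and 1326 in DM (log2 fold change 2.23 ± 0.192 (SE), adjusted *p* = 3.89e-27). The parent gene *Rps4x* (3429 ± 619 against 3679 ± 318, SD, n = 4) and the overlapping gene *Tmtc1* (1669 ± 422 against 1908 ± 276) had log2 fold changes of 0.10 and 0.19 with adjusted *p* values of 1. Because of the sequence shared with *Rps4x* and the overlap with *Tmtc1*, the level of *Rps4l* is uncertain.

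*Cacng6* encodes a gamma subunit of voltage-gated calcium channels that is best known from skeletal muscle. It rose from 47.1, 37.4, 38.2 and 74.8 in *Kmt2a*-HET to 602, 639, 406 and 493 in DM, and the lowest DM library was more than 5 times the highest *Kmt2a*-HET library (log2 fold change 3.44 ± 0.337 (SE), adjusted *p* = 6.91e-21). Both annotated transcripts were called (log2 fold changes 3.81 and 3.33). The other 6 tested members of the gamma subunit family, which include the TARP subunits of AMPA receptors, were not called and had log2 fold changes between -0.20 and 0.17.

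*Ido2* encodes an indoleamine 2,3-dioxygenase, an enzyme of the first step of tryptophan breakdown along the kynurenine pathway. It was counted at 19.7, 36.2, 30.8 and 23.3 in *Kmt2a*-HET and 211.5, 202, 186 and 168 in DM (log2 fold change 2.80 ± 0.31 (SE), adjusted *p* = 5.66e-16). It was the only one of the 10 tested kynurenine pathway genes that was called, and the median log2 fold change of the 10 was -0.09. The increase lay in transcripts that are not annotated as coding. The processed transcript *Ido2*-204 had values of 4.46, 35.4, 16.3 and 0 in *Kmt2a*-HET and 177, 154, 142 and 133 in DM (adjusted *p* = 0.000115), and the retained-intron transcript *Ido2*-203 rose from a mean of 2.20 ± 2.68 to 37.3 ± 4.07 (SD, n = 4, adjusted *p* = 0.00379). The protein-coding *Ido2*-201 was at 13.4, 0, 8.17 and 19.7 in *Kmt2a*-HET and at 0 in all 4 DM libraries (adjusted *p* = 0.501). The transcript values are estimates that divide reads between overlapping isoforms, and at these counts a division between 2 isoforms is uncertain.

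**Figure D1:**
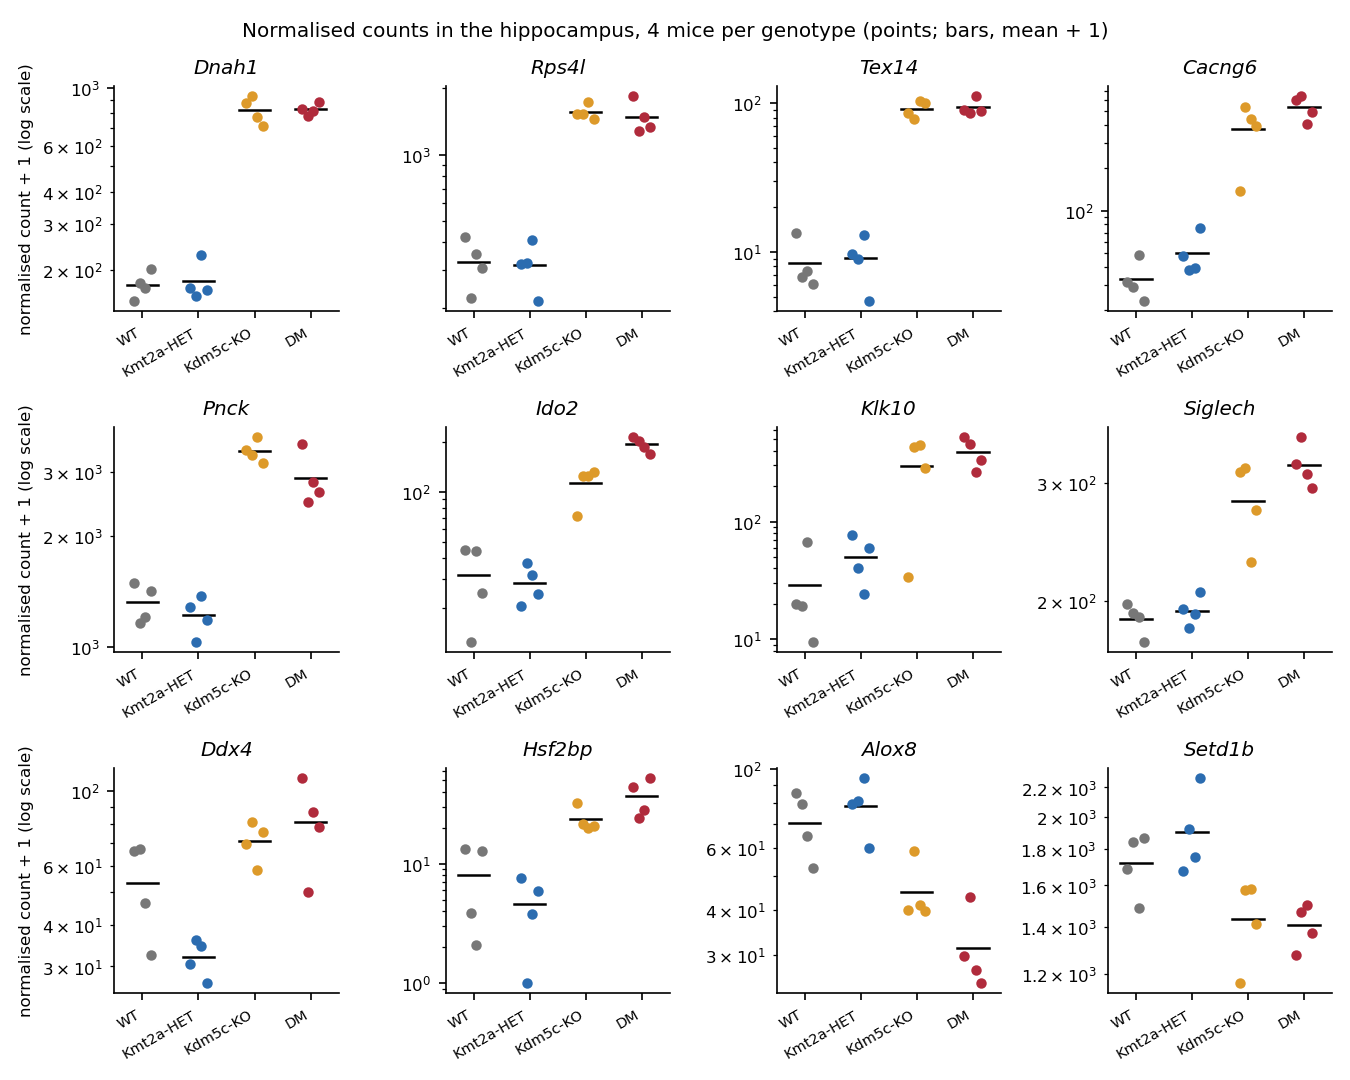
Normalised counts plus 1 (vertical axis, log scale, separate range in each panel) of 12 genes in the hippocampus of the 4 genotypes, with 1 point per mouse and a bar at the mean. In the 10 genes called higher the DM points lie above the *Kmt2a*-HET points, and in *Alox8* and *Setd1b* they lie below.

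*Pnck*, on the X chromosome, encodes a kinase of the calcium/calmodulin-dependent family (CaMKI beta). It was already abundant in *Kmt2a*-HET at 1279.6, 1029.9, 1378 and 1186 and reached 3560.3, 2473, 2810.2 and 2646 in DM (log2 fold change 1.24 ± 0.127 (SE), adjusted *p* = 6.04e-19). *Gaa*, the lysosomal enzyme that degrades glycogen, was counted at 8568, 8635, 11480.3 and 8839.8 in *Kmt2a*-HET and at 15863, 14549.7, 13674 and 14570.3 in DM (log2 fold change 0.64 ± 0.0964 (SE), adjusted *p* = 3.06e-08). It was 1 of the most abundant genes called, and the lowest DM library lay above the highest *Kmt2a*-HET library although the change was under 2-fold.

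*Pgam2*, the muscle form of the glycolytic enzyme phosphoglycerate mutase, was at 203, 131, 235 and 221 in *Kmt2a*-HET and 646, 421, 772 and 531 in DM (log2 fold change 1.58 ± 0.206 (SE), adjusted *p* = 3.15e-11). *Crybb1*, which encodes a crystallin of the eye lens, was at 85.5, 40.7, 75.5 and 56.4 and 240.3, 219, 203 and 156 (log2 fold change 1.66, adjusted *p* = 2.04e-08). In both genes every DM library was above every *Kmt2a*-HET library.

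*Tnxb*, an extracellular matrix glycoprotein gene, was at 423, 569, 663 and 877 in *Kmt2a*-HET and 2914, 2418, 1946 and 2338 in DM (log2 fold change 1.93, adjusted *p* = 2.04e-08). *Nlrx1*, a mitochondrial member of the NOD-like receptor family, was at 164.5, 235, 227 and 244 and 404, 448, 369 and 415 (log2 fold change 0.91, adjusted *p* = 3.01e-10). *Scarf2*, a scavenger receptor gene, was at 63.6, 81.5, 61.5 and 58.9 and 192, 174, 184 and 149 (log2 fold change 1.40, adjusted *p* = 2e-11). *Wdr95* was near the floor in *Kmt2a*-HET, at 0, 2.26, 1.86 and 6.13, and reached 30.5, 25, 34.2 and 34.4 in DM (log2 fold change 3.65, adjusted *p* = 1.96e-07). The 20 higher genes with the smallest adjusted *p* also included the less characterised genes *6330403K07Rik* (log2 fold change 0.88), *Gm45441* (1.86, antisense to *Grin2d* and *Grwd1*), *Gm17244* (1.41, opposite *Bmp8b* and *Oxct2b*), *Ccdc9b* (0.90) and *6430584L05Rik* (1.64), all with 4 of 4 DM libraries above all *Kmt2a*-HET libraries.

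*Siglech*, a sialic acid-binding receptor of microglia, was tightly grouped in both genotypes. It was at 193, 181, 190.1 and 205 in *Kmt2a*-HET and 319.8, 351, 309 and 294 in DM (log2 fold change 0.73 ± 0.122 (SE), adjusted *p* = 2.46e-06). It was the only one of 14 microglia markers called, and the median of the 14 was 0.05. The general microglia markers *Cx3cr1* (1183 ± 82.7 against 1160 ± 126) and *Tmem119* (540.7 ± 48.2 against 541 ± 67.3) had log2 fold changes of -0.03 and 0.00.

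*Klk10*, a kallikrein-related protease gene, was at 75.7, 39.6, 23.3 and 58.9 in *Kmt2a*-HET and 519, 455, 260.2 and 331.5 in DM (log2 fold change 2.99 ± 0.699 (SE), adjusted *p* = 0.00727), and the lowest DM library was more than 3 times the highest *Kmt2a*-HET library. *Neurog2*, a proneural transcription factor of neuronal progenitors, was at 2.19, 2.26, 9.32 and 1.23 and 43.1, 31.5, 30.7 and 27.1 (log2 fold change 3.07, adjusted *p* = 0.000116). *Tcfl5*, a transcription factor of spermatocytes, was counted in 1 of the 4 *Kmt2a*-HET libraries, at 5.59, and was at 25.4, 37, 19.3 and 12.5 in DM (log2 fold change 3.94, adjusted *p* = 0.00563). *Tcfl5* was not called by edgeR (adjusted *p* = 0.191), and *Klk10* was not called without DM replicates 2 and 4.

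A list of 64 germline and meiosis genes was followed because such genes are known targets of KDM5C. Of the 64, 35 passed the expression filter, 7 were called higher and 0 lower, and 13 had a count of 0 in all 8 libraries. Of all genes tested 0.528% were called higher. The median log2 fold change of the 35 was 0.53, with 25 of them above 0, and without DM replicates 2 and 4 it was 0.44 with 6 called higher. The summed level of the list was 33.98 to 40.48 CPM in *Kmt2a*-HET and 42.95 to 48.6 CPM in DM. Since genes that are off in *Kmt2a*-HET can pass the filter only through libraries in which they are expressed, these shares describe the genes that passed and not the whole list.

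The 7 called genes serve different steps of germ cell development. *Tex14*, which is required for the intercellular bridges between male germ cells, had the third smallest adjusted *p* of all genes, at 8.77, 7.92, 12.1 and 3.68 in *Kmt2a*-HET and 89.7, 85.1, 110.4 and 87.6 in DM (log2 fold change 3.48 ± 0.329 (SE), adjusted *p* = 2.16e-22). *Ddx4* (Vasa), an RNA helicase of germ cells, was at 29.6, 35.1, 33.5 and 25.8 and 108, 49, 85.8 and 77.2 (log2 fold change 1.37 ± 0.29 (SE), adjusted *p* = 0.00115). *Hsf2bp*, which takes part in meiotic recombination, was at 6.58, 0, 2.8 and 4.91 and 43.1, 23.1, 27.2 and 51.1 (log2 fold change 3.35, adjusted *p* = 6.82e-05).

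*D1Pas1*, a testis-expressed helicase gene related to *Ddx3x*, had 1 count over the 4 *Kmt2a*-HET libraries and 70 over the 4 DM libraries, a ratio of 59.1 with a 95% exact counting interval of 10.3 to 2370 (log2 fold change 5.62, adjusted *p* = 0.000505). *Cyct*, the testis cytochrome c, had 2 counts against 67, a ratio of 28.3 with an interval of 7.53 to 238 (log2 fold change 4.82, adjusted *p* = 0.00743). Both intervals cover counting error only and leave out the spread between mice. *Stk31*, a testis kinase gene, was at 1.1, 3.4, 0 and 2.45 in *Kmt2a*-HET and 13.5, 4.63, 20.1 and 11.5 in DM (adjusted *p* = 0.0973), and *Syce1*, a component of the synaptonemal complex, was at 2.19, 0, 1.86 and 0 and 14.4, 7.4, 13.1 and 11.5 (adjusted *p* = 0.0882). *Syce1* was called in 0 and *Stk31* in 1 of the 8 fits that leave out 1 library, and neither was called by edgeR, whereas the other 5 germline genes were called in all 8 and by edgeR. All 4 genes were near the floor in *Kmt2a*-HET, so that their fold changes are poorly determined. All 4 had counts in each DM library, although *Stk31*, at 4.63 in DM replicate 2, was close to the floor there too.

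Other germline regulators on the list did not pass the test. *Naa11* had a log2 fold change of 2.95 (adjusted *p* = 0.128), *Sycp3* of 1.27 (0.726) and *Rec8* of 2.04 (0.649), *Dazl* was at 40.1 ± 4.94 in *Kmt2a*-HET and 43.7 ± 3.23 in DM (log2 fold change 0.12), and *Stra8*, *Prm1*, *Tnp1*, *Ldhc* and *Pgk2* were among the genes at 0 in all 8 libraries. Outside the list, and named after their values were seen, *Rnf17*, which encodes a Tudor domain protein of germ cells, was called at 8.77, 7.92, 7.46 and 11 against 49.1, 26.8, 30.7 and 37.5 (log2 fold change 2.05, adjusted *p* = 0.000153), and the meiosis genes *Ccnb1ip1* (log2 fold change 2.55, adjusted *p* = 0.00727) and *Mcmdc2* (log2 fold change 1.41, adjusted *p* = 0.0287) were called too. *Ccnb1ip1* was called in 7 and *Mcmdc2* in 5 of the 8 fits that leave out 1 library, *Mcmdc2* was not called by edgeR, and neither gene was called without DM replicates 2 and 4. The 23 genes of the PRC1.6 complex and related silencers of germline genes were all tested and none was called (median log2 fold change -0.04).

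PRC1.6 is known to reach germline promoters through subunits that bind the E-box CACGTG and the E2F element GGCGGGAA (TTCCCGCC on the other strand), and both were searched on both strands of RefSeq promoter windows of 250 bases before to 50 after the start site (GRCm38.p6, the assembly behind mm10). Windows were found for 79 of the 102 higher and 11 of the 15 lower genes. Among the called germline genes an element was found for *Tex14*, *Ddx4* and *Stk31* only. For *D1Pas1*, *Cyct*, *Syce1* and *Hsf2bp* no element or no window was found. The sites of *Tex14*, *Ddx4* and *Stk31* are printed with 30 bases each, to show the letters and their setting. Those of 3 of the other higher genes with an element, *Gaa*, *Siglech* and *Amn*, are printed too. *Amn* is a receptor subunit gene of vitamin B12 uptake that edgeR did not call. Capitals mark the element, and each line runs 5′ to 3′ along the gene's strand.
*Tex14*, chr11:87404942-87404971, plus strand, element starting 112 bases before the start site: accccttgcttTTCCCGCCctcgcggggga
*Ddx4*, chr13:112652429-112652458, minus strand, 137 bases before: tccgtccatggGGCGGGAAgtcgcgcgccg
*Ddx4*, chr13:112652322-112652351, minus strand, 29 bases before: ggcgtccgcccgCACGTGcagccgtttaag
*Stk31*, chr6:49395472-49395501, plus strand, 55 bases before: aggccggccaccCACGTGaccagggctgcg
*Gaa*, chr11:119267811-119267840, plus strand, 140 bases before: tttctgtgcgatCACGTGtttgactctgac
*Siglech*, chr7:55768116-55768145, plus strand, 56 bases before: ctgctgggctttCACGTGatctctgcagat
*Amn*, chr12:111271058-111271087, plus strand, 26 bases before: gccccgcccggtCACGTGgggccctcggag

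The *Tex14* site also lies in an exon of the divergent gene *Rad51c*, and both *Ddx4* sites lie in an annotated exon of *Ddx4*. Across the windows the E-box was present in 11 of the 79 higher genes (13.9%), 0 of the 11 lower genes and 10.9% of all genes tested that had a window. The E2F element was present in 2 of the 79 (2.53%), in 1 of the 11 lower genes (*Pik3c2b*) and in 4.27% of all genes tested. Of all 32851 windows in the table, 7.15% held the E-box and 2.19% the E2F element. *Ddx4* was the only called gene with both elements (0.375% of all genes tested).

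Of the 15 genes called lower, *Alox8* had the smallest adjusted *p*. It encodes a lipoxygenase that oxidises arachidonic acid and lies at chr11:69183932-69197843. It was at 79, 80.3, 93.2 and 58.9 in *Kmt2a*-HET and 28.8, 42.6, 26.3 and 24 in DM (log2 fold change -1.36 ± 0.257 (SE), adjusted *p* = 9.1e-05), and the highest DM library lay below the lowest *Kmt2a*-HET library. It was the only lower gene that was called under each of the 8 fits that leave out 1 library of the comparison, and 1 of the 3 lower genes called by edgeR.

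*Setd1b* encodes another H3K4 methyltransferase. It was at 1675, 1919, 1757 and 2266 in *Kmt2a*-HET and 1273, 1468, 1501 and 1372 in DM, with no overlap between the groups (log2 fold change -0.44 ± 0.122 (SE), adjusted *p* = 0.0635). It kept its call in 2 of the 8 fits that leave out 1 library and was not called by edgeR (adjusted *p* = 0.216). The other 22 genes of a list of 23 H3K4 methyltransferases and cofactors were not called. Their values included *Kmt2b* (2389 ± 361 against 2304 ± 318) and *Kmt2d* (7836 ± 2420 against 7399 ± 2480), and the list had a median log2 fold change of -0.08 with 3 of 23 estimates above 0. None of the 7 H3K4 demethylases tested was called, and the paralogues *Kdm5a*, *Kdm5b* and *Kdm5d* had log2 fold changes of 0.01, 0.04 and -0.13.

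*2210418O10Rik* and *Gm22820* each had libraries at 0. *2210418O10Rik* was at 60.3, 143, 184.5 and 103 in *Kmt2a*-HET and 0, 0, 0 and 6.26 in DM (log2 fold change -6.33, adjusted *p* = 0.0303). *Gm22820*, a small non-coding RNA opposite *Chrm1*, was at 0, 11.3, 8.39 and 13.5 in *Kmt2a*-HET and at 0 in all 4 DM libraries (adjusted *p* = 0.0223), so that *Kmt2a*-HET replicate 1 overlapped with DM. In WT, which was not part of the comparison, the same 2 libraries were at 0 for both genes (replicates 1 and 3), at 0, 101, 0 and 64.5 for *2210418O10Rik*, while all 4 *Kdm5c*-KO libraries had counts (45.6, 147, 57.4 and 72). Libraries at 0 thus occurred in WT as well as in DM, and for *Gm22820* in *Kmt2a*-HET too. *2210418O10Rik* was called in 3 and *Gm22820* in 6 of the 8 fits that leave out 1 library.

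The other lower genes changed less. *Galnt14*, a glycosyltransferase gene, was at 444, 542, 508 and 471 in *Kmt2a*-HET and 330, 392, 378 and 391 in DM (log2 fold change -0.40, adjusted *p* = 0.0113). *Acss2*, which makes acetyl-CoA from acetate, was at 1223, 1306, 1374 and 1325 and 1099.9, 1125, 1140.5 and 1027 (log2 fold change -0.25, adjusted *p* = 0.0706). *Cox15*, needed to make the heme of cytochrome oxidase, was at 571, 561, 524 and 577 and 454, 438, 464 and 398 (log2 fold change -0.35, adjusted *p* = 0.0907). In these 3 genes the groups did not overlap and the changes were under 2-fold. *Galnt14* was called in 6, *Acss2* in 1 and *Cox15* in 0 of the 8 fits that leave out 1 library, and edgeR called only *Galnt14* of the 3.

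*Gm49378*, which shares its strand with *Ipo4* and *Tm9sf1*, was at 111, 133.5, 110 and 117 in *Kmt2a*-HET and 27.1, 87, 45.5 and 28.1 in DM (log2 fold change -1.33, adjusted *p* = 0.0245). *Ogn*, an extracellular matrix gene of the meninges, was at 141, 106, 49.4 and 81 and 16.9, 39.8, 15.8 and 42.8 (log2 fold change -1.72, adjusted *p* = 0.0931), and its call held in 2 of the 8 fits that leave out 1 library. It was the only one of 11 meningeal and fibroblast markers called. The list had a median log2 fold change of -0.30 with 3 of 11 above 0 (-0.60 with 1 of 11 above 0 without DM replicates 2 and 4) and summed levels of 72.77 to 129.3 CPM in *Kmt2a*-HET and 61.55 to 180.3 CPM in DM, and its part in the *Ogn* result was not tested. *Ndnf*, a secreted neurotrophic factor gene, was at 341, 384, 494 and 355 and 271, 247, 286 and 221 (log2 fold change -0.62, adjusted *p* = 0.0921). The groups of *Tspan2* (log2 fold change -0.73), a tetraspanin gene of myelin, and *Ier5l* (-0.85) overlapped, and *Pik3c2b*, *Fancf* and *Plekhn1* had log2 fold changes of -0.37, -0.64 and -0.26. *Gm49378* was called in 4, *Ndnf* and *Fancf* in 1, and *Tspan2*, *Ier5l*, *Pik3c2b* and *Plekhn1* in 2 of the 8 fits that leave out 1 library, and edgeR called none of these 7 genes. Of 12 oligodendrocyte markers 0 were called, and 0 had an estimate above 0 (median log2 fold change -0.27, and -0.09 with 4 of 12 above 0 without DM replicates 2 and 4), with summed levels of 3201 to 6875 CPM in *Kmt2a*-HET and 3357 to 5129 CPM in DM, and their part in the *Tspan2* result was not tested.

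The following higher genes were named after their values were seen. *Alox5*, which makes leukotrienes, was at 16.4, 13.6, 16.8 and 22.1 in *Kmt2a*-HET and 40.6, 42.6, 40.3 and 45.9 in DM (log2 fold change 1.30, adjusted *p* = 0.00997). *Ltb4r2*, a leukotriene B4 receptor, was at 4.39, 4.53, 3.73 and 1.23 and 26.2, 20.4, 10.5 and 11.5 (log2 fold change 2.29, adjusted *p* = 0.0107). *C5ar2*, a receptor of complement C5a, was at 8.77, 6.79, 1.86 and 3.68 and 32.1, 19.4, 21.9 and 22.9 (log2 fold change 2.21, adjusted *p* = 0.00915). In all 3 the DM libraries lay above all *Kmt2a*-HET libraries, and *Alox5* was not called without DM replicates 2 and 4. No list of such genes was examined.

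*Zmynd8*, a chromatin reader, was at 2849.7, 2718, 2951 and 2954 in *Kmt2a*-HET and 4594, 4849, 3838 and 3985 in DM (log2 fold change 0.59, adjusted *p* = 8.06e-05). *Prdm16*, a transcription factor with a methyltransferase domain, was at 327, 432, 403 and 418 and 557, 798, 571 and 693 (log2 fold change 0.73, adjusted *p* = 0.000128), and *Gm13111*, an antisense RNA that lies 0.7 kb from it, was called too (log2 fold change 0.49). The highest *Prdm16* values were those of DM replicates 2 and 4, and neither gene was called without these libraries. *Ddo*, the oxidase of D-aspartate, was at 281, 188, 228 and 244 and 393, 389, 464 and 448 (log2 fold change 0.85, adjusted *p* = 0.000116). *Hpcal4*, a neuronal calcium sensor gene, was the most abundant gene called, at 19640.1, 17026, 24759 and 21879 and 26559.5, 27618, 26091 and 27867 (log2 fold change 0.38, adjusted *p* = 0.029). Its call held in 4 of the 8 fits that leave out 1 library, and it was called neither by edgeR nor without DM replicates 2 and 4.

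**Figure D2:**
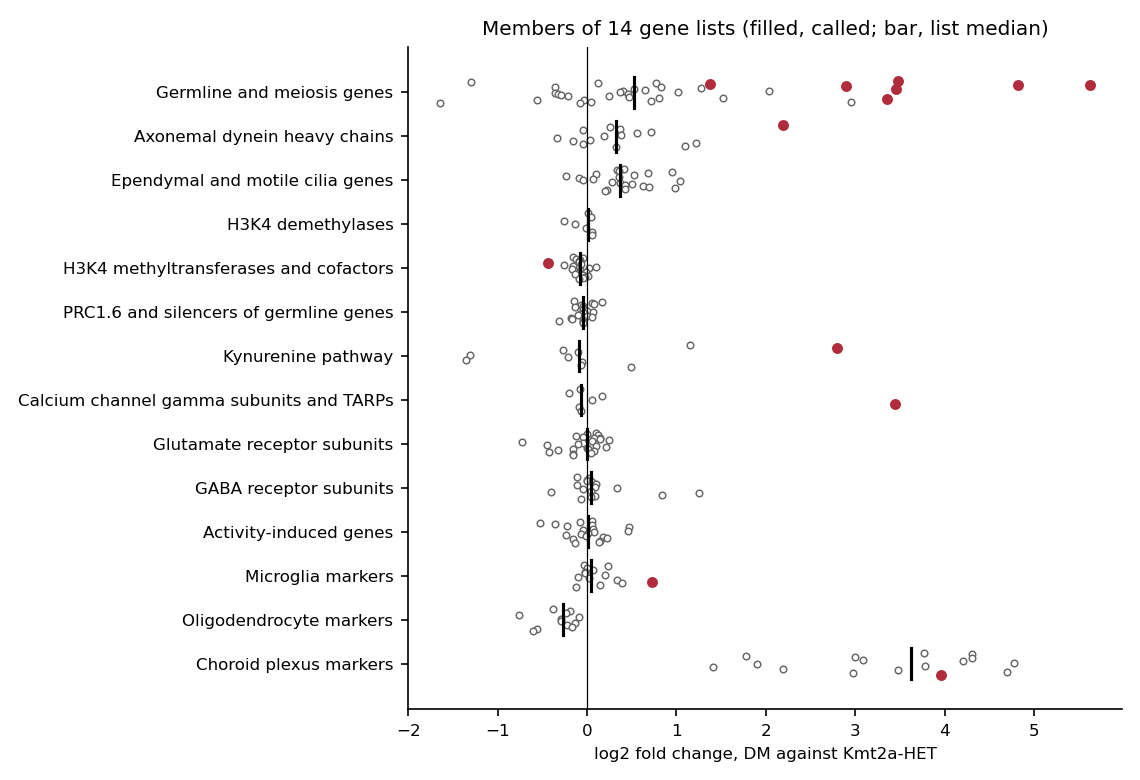
Log2 fold change of DM against *Kmt2a*-HET (horizontal axis) of the tested members of 14 gene lists (rows), with called genes filled and the list median as a bar. The germline list holds 7 called genes to the right of 0, several lists hold a single called gene far from a median near 0, and the choroid plexus markers all lie to the right of 0 with 1 of 16 called.

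Most lists of neuronal and signalling genes held no called gene. Over all genes tested 0.606% were called, so that lists of this size would mostly hold none. None of 25 glutamate receptor subunits, 17 GABA receptor subunits, 21 activity-induced genes, 24 neuropeptides and hormones, 9 catecholamine genes, 37 imprinted genes or 19 interferon-induced genes passed the test, and their medians lay between -0.25 (neuropeptides) and 0.46 (catecholamine genes). Without DM replicates 2 and 4 these medians lay between -0.19 (neuropeptides) and 0.47 (catecholamine genes), and 1 imprinted gene was called lower. The activity-induced genes then had a median of 0.37 with 17 of 21 above 0, against 0.01 with all libraries. No marker of CA1 (10 genes), CA2 and CA3 (12) or dentate gyrus (12) was called. Their medians were 0.03, 0.07 and -0.16, and their summed levels in the 8 libraries were 792.8 to 1207.6, 317.6 to 533.1 and 516.8 to 1335.3 CPM. Markers of striatum, thalamus, hypothalamus, interneurons, oligodendrocyte precursors, astrocytes, endothelium and blood held no called gene either. Astrocyte markers had 10 of 12 estimates above 0 (median log2 fold change 0.17) and summed levels of 5175.3 to 6043.3 CPM in *Kmt2a*-HET and 5403.7 to 7307.9 CPM in DM, and interneuron markers had 2 of 12 above 0 (median -0.23) and 532.1 to 850.6 against 497.3 to 703.4 CPM. Of 10 neuroactive ligand and receptor genes singled out by the study, 7 were tested and 0 called. That list was chosen by the study on these samples, among genes whose change in DM against WT was small. The choice made a call in DM less likely, so the absence of calls is a description only. *Adcy2* was at 3706, 4315, 2759 and 4490.5 in *Kmt2a*-HET and 4125, 3679.8, 3853 and 3700.2 in DM, *Agt* at 897, 364, 606 and 380.3 and 634, 587.5, 853 and 701, and *Mc3r*, at 0 in all 4 *Kmt2a*-HET libraries, was at 0.846, 7.4, 0.876 and 1.04 and not called. *P2ry14*, *Tacr1*, *Gabre* and *Lhb* had log2 fold changes of -0.10, -0.32, 1.25 and 1.24, and *Pomc*, *Adora2a* and *Trh* had no adjusted *p*.

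Choroid plexus markers differed between libraries of 1 genotype. Their summed level over 16 genes was 125.5, 49.1, 76.4 and 44.8 CPM in the *Kmt2a*-HET libraries and 53.6, 1313, 57.3 and 1392 CPM in the DM libraries, so that DM replicates 2 and 4 were over 10 times the highest *Kmt2a*-HET library. All 16 estimates were above 0 with a median of 3.63, 1 was called (*Tmem72*), and without DM replicates 2 and 4 the median was -0.63 with 4 of 16 above 0. *Tmem72* was at 63.6, 26, 40.1 and 33.1 in *Kmt2a*-HET and 25.4, 1040, 34.2 and 1441 in DM (log2 fold change 3.96, adjusted *p* = 0.0907). *Slc16a8*, a lactate transporter gene of choroid plexus and retinal pigment epithelium that was not on the list, was at 16.4, 10.2, 10.2 and 6.13 and 20.3, 135, 30.7 and 158.5 (adjusted *p* = 0.058). The values of both genes follow the 2 libraries with the highest marker sums, and neither was called without them.

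**Figure D3:**
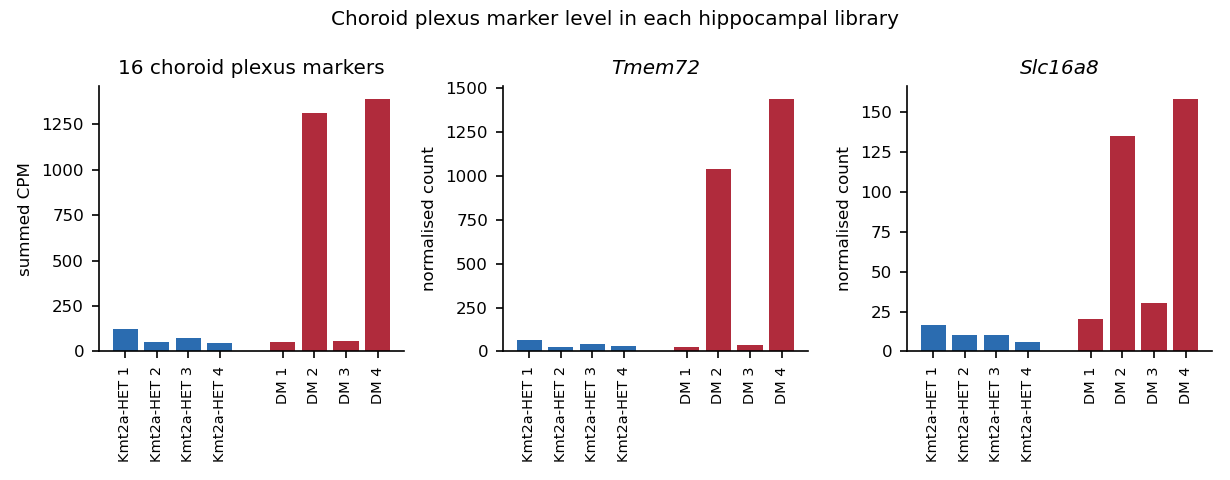
Summed CPM of 16 choroid plexus markers (left) and normalised counts of *Tmem72* and *Slc16a8* (middle and right) in each *Kmt2a*-HET (blue) and DM (red) library. DM replicates 2 and 4 carry the high values in all 3 panels, while DM replicates 1 and 3 lie near the *Kmt2a*-HET libraries.

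The 23 tested genes of ependymal and motile cilia, another cell type of the ventricle wall, had a median of 0.37 with 20 above 0 and 0 called, and without DM replicates 2 and 4 a median of -0.05 with 9 above 0. *Dnah1* was called without these libraries, as were *Tex14*, *Cacng6*, *Ido2*, *Pnck*, *Siglech*, *Ddx4*, *D1Pas1* and *Cyct*. Of the 102 higher genes 59 were called without them, and 101 kept their direction, the exception being *Tmem72* (log2 fold change -0.45). Of the 15 lower genes 5 were called and all 15 kept their direction.

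*Kdm5c*-KO and WT gave the same contrast of *Kdm5c* in mice with 2 intact *Kmt2a* copies, and shared no library with the comparison above. In that pair 195 genes were called (1.01% of 19316 tested), 160 higher (0.828%) and 35 lower (0.181%). Of the 117 genes, 64 were called there (54.7%), all of them in the same direction, and 115 had the same sign, against 57.0% of all genes tested. All 102 higher genes were also higher in *Kdm5c*-KO and 62 of them were called, whereas 13 of the 15 lower genes had the same sign and 2 were called (*Ier5l* and *Ndnf*). The exceptions were *2210418O10Rik* and *Gm22820*. Choroid plexus markers varied here too, from 46.19 to 1161.9 CPM in WT and 66.54 to 5118.5 CPM in *Kdm5c*-KO, and 1 *Kdm5c*-KO library held 741.9 CPM of striatum markers, whose part in the result was not tested. The number called in this pair was 109 to 290 when 1 library was left out. Between 53 and 61 of the 117 genes were called, and 111 to 115 had the same sign, when any 1 of the 8 *Kdm5c*-KO and WT libraries was left out.

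For *Dnah1*, *Tex14* and *Cacng6* the estimates of both pairs were close. *Dnah1* was at 151, 177, 169.8 and 200.3 in WT and 872, 929.6, 771 and 715 in *Kdm5c*-KO (log2 fold change 2.23, against 2.19 for DM). *Tex14* was at 12.4, 5.75, 6.49 and 5.09 and 84.7, 77.5, 103 and 99.4 (3.65 against 3.48). *Cacng6* was at 30.4, 27.8, 47.6 and 22.1 and 137, 538, 439 and 393 (3.57 against 3.44), with 1 *Kdm5c*-KO library well below the other 3.

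*Ddx4* was at 65.2, 66.1, 45.4 and 31.4 in WT and 68.4, 80.2, 57.4 and 74.8 in *Kdm5c*-KO and was not called there (log2 fold change 0.44 ± 0.277 (SE), adjusted *p* = 0.764). *Ido2* was at 43.9, 11.5, 43.3 and 23.8 and 70.6, 123, 124 and 129.7 (log2 fold change 1.89 ± 0.308 (SE), adjusted *p* = 1.08e-06). *C5ar2* was at 10.1, 4.79, 8.65 and 15.3 and 18.5, 9.01, 7.91 and 8.52 (log2 fold change 0.15, adjusted *p* = 0.994). In these 3 genes the DM against *Kmt2a*-HET estimate was the larger one.

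**Figure D4:**
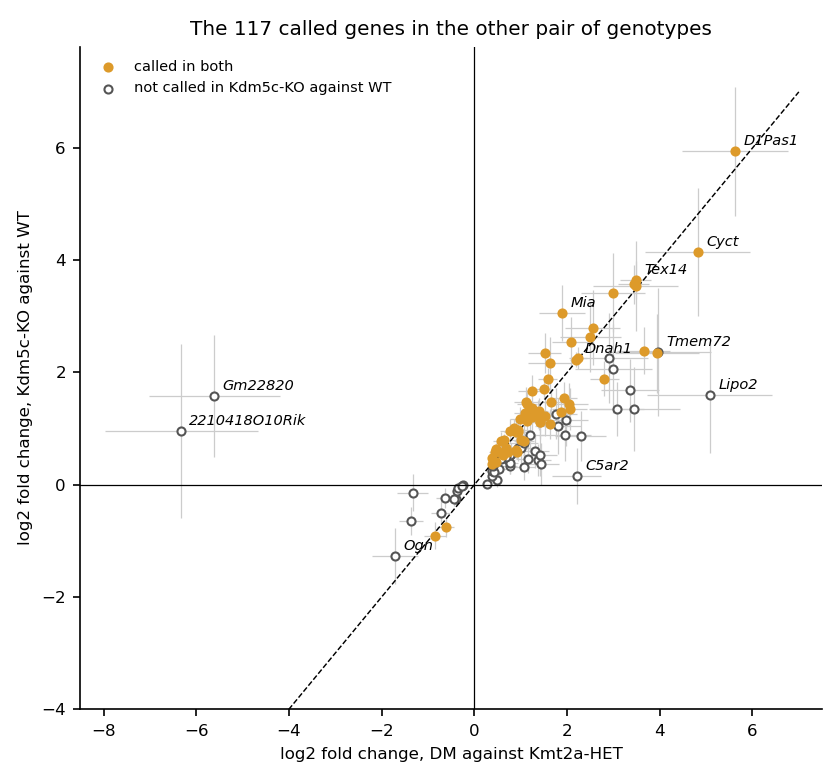
Log2 fold change of *Kdm5c*-KO against WT (vertical axis) against that of DM against *Kmt2a*-HET (horizontal axis) for the 117 genes called in the latter, with standard errors and the line of equality (dashed). All 102 higher genes lie above 0 on the vertical axis, and *2210418O10Rik* and *Gm22820* are the 2 genes of opposite sign.

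The difference between the 2 *Kdm5c* effects was tested for each gene as an interaction with *Kmt2a* genotype. DESeq2 called 0 of 29865 genes, with 570 at an unadjusted *p* under 0.05, and edgeR called 0 with 410. Without *Kmt2a*-HET replicate 1 DESeq2 called 2 genes, and without DM replicate 3 or *Kdm5c*-KO replicate 2 it called 1. With a replicate block DESeq2 called 68 genes, and with a term for replicate 1 it called 20. The block with a low-count filter and the block in edgeR gave 0. Among the 117 genes 17 had an unadjusted *p* under 0.05 and all had an adjusted *p* of 1. The estimate for *Ido2* was a log2 difference of 0.91 with a 95% interval of 0.05 to 1.77, for *Ddx4* 0.93 (0.14 to 1.71) and for *C5ar2* 2.06 (0.64 to 3.48). For *Dnah1* it was -0.04 (-0.40 to 0.32), for *Pnck* -0.13 (-0.48 to 0.22) and for *Siglech* 0.14 (-0.20 to 0.48). The estimate was larger in size against *Kmt2a*-HET than against WT for 83 of the 117 genes. The genes were selected on the former comparison, which favours larger estimates there.

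DM against WT and *Kmt2a*-HET against WT share libraries with the comparison described here, so their values are given side by side only. *Tex14* had log2 fold changes of 3.48 (DM against *Kmt2a*-HET), 3.69 (DM against WT) and 0.21 (*Kmt2a*-HET against WT). *Ddx4* had 1.37, 0.63 and -0.74. *Ido2* had 2.80, 2.66 and -0.13. DM against WT called 174 genes (0.927% of 18761 tested, with 0.736% higher and 0.192% lower). *Kmt2a*-HET against WT called 0 genes in DESeq2, with 715 at an unadjusted *p* under 0.05, and DM against *Kdm5c*-KO called 2, both lower (0.0067% of 29865).

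In the amygdala of the same mice, 158 genes were called in DM against *Kmt2a*-HET (0.805% of 19635 tested), 138 higher (0.703%) and 20 lower (0.102%). The sign was shared by 103 of the 117 hippocampal genes (62.1% of all genes tested), and 45 were called in amygdala, all of them higher genes, while 0 of the 15 lower genes were called. Germline genes called in both regions included 3 with these amygdala values. *Tex14* was at 14.5 ± 8.34 in *Kmt2a*-HET and 136 ± 18.7 in DM (SD, n = 4, log2 fold change 3.22, adjusted *p* = 1.31e-22), *Hsf2bp* at 6.59 ± 4.22 in *Kmt2a*-HET and 67.5 ± 28.2 in DM (log2 fold change 3.38, adjusted *p* = 1.88e-07) and *Ddx4* at 25.1 ± 3.11 in *Kmt2a*-HET and 73.6 ± 10.6 in DM (log2 fold change 1.55, adjusted *p* = 0.00279).

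Several genes called in hippocampus were not called in amygdala. *Ido2* was at 30.4 ± 4.61 in *Kmt2a*-HET and 30.6 ± 2.88 in DM in the amygdala (log2 fold change 0.02), *Cacng6* at 19.8 ± 6.21 in *Kmt2a*-HET and 43.2 ± 10 in DM (log2 fold change 1.13, adjusted *p* = 0.527) and *Pnck* at 2514 ± 75.3 in *Kmt2a*-HET and 2978 ± 551 in DM (log2 fold change 0.24, adjusted *p* = 0.942). *Gaa* was at 21361 ± 891 in *Kmt2a*-HET and 22196 ± 2250 in DM (log2 fold change 0.06). *Dnah1* was called in both, and its amygdala levels were 561 ± 100 in *Kmt2a*-HET and 1068 ± 124 in DM (log2 fold change 0.93 ± 0.186 (SE), adjusted *p* = 0.000297). The difference between regions was not tested, and the tables of the regions were normalised separately.

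The called genes were spread over the genome. The highest shares were on chromosomes 14 (10 of 698 tested, 1.43%), 6 (11 of 1001, 1.1%) and 11 (15 of 1426, 1.05%), against 0.606% of all genes, and none of the 77 tested genes within 10 Mb of *Kdm5c* was called. The 2 called X-linked genes, *Pnck* and *Pnma3* (log2 fold change 0.39, adjusted *p* = 0.032), lay 78.6 and 79.2 Mb from *Kdm5c*, and *Pnma3* was called in 5 of the 8 fits that leave out 1 library and not by edgeR. Within 100 kb, 5 pairs of called genes were neighbours, namely *Dnah1* and *Gm35823*, *Prdm16* and *Gm13111*, *Parvb* and *Parvg* (actin-binding parvins, 8.3 kb apart, log2 fold changes 0.61 and 1.01), *Hpcal4* and *Gm17244*, and *2900052N01Rik* and *Gm31614*. Of these 10 genes only *Dnah1* and *Gm17244* were called by edgeR and also without DM replicates 2 and 4. At the level of transcripts 191 of 51860 were called (0.368%), 140 higher (0.27%) and 51 lower (0.0983%), in 182 genes, of which 63 were called as genes.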

How the data were processed

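Gene and transcript tables of expected counts, made from paired-end, directional oligo-dT libraries with spike-in RNA (ERCC), were deposited by the authors. The submitters' processing notes name STAR 2.5.3a, featureCounts (Subread 1.5.0), DESeq2 1.14.1 and mm10. The methods of the study describe unique reads with duplicates removed, but 7.01% of the hippocampal gene values are not whole, and the estimator, strand setting and annotation release of the expected counts are not given in the sources used here. No reads were mapped here.

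Values were rounded. Of 53715 genes, counted beside 92 ERCC sequences, 53620 were matched to GENCODE M21 for symbols, coordinates and overlaps. Genes were tested with DESeq2 1.42.0 (R 4.3.3, Wald test) in 1 fit of all 16 hippocampal libraries with a term for genotype, default size factors and filters, and a Benjamini-Hochberg adjusted *p* under 0.1, after the study's methods. Other contrasts came from the same fit, and amygdala and transcripts from fits of their own. The scripts were tested on simulated data. Replicates of a genotype differed by more than counting error (chi-square per gene 9.33 to 37.7). Deviations of same-numbered *Kmt2a*-HET and DM libraries were compared for pairing.

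Gene lists and naming rules were chosen with earlier results of these data known. Named were *Kdm5c*, *Kmt2a*, the 20 higher and 15 lower genes with the smallest adjusted *p*, the 10 called genes with the largest change and a mean of at least 20 in a group, called list members, the 10 genes of the study list and the X-linked called genes nearest *Kdm5c*. Among the genes the rule names, 1 is not reported here. Lists were described by counts and medians, with no set test. Alternatives were edgeR 4.0.16 (quasi-likelihood), TMM and ERCC size factors, a filter of 10 counts in 4 libraries, only the 2 groups compared, an adjusted *p* under 0.05, a replicate block (alone, with the filter and in edgeR), a term for replicate 1, no outlier filter and leaving out each library. Leaving out DM replicates 2 and 4 together, and WT and *Kdm5c*-KO libraries in the interaction, was chosen after seeing the data. That the 4 mice of a group were separate animals is from the labels.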

Additional observations from a re-analysis of the deposited data

Results flagged for a closer look

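Single libraries stood apart from the other 3 of their genotype in 10 of the 126 sets of 4 hippocampal values examined (a gap to the nearest library above the 95% critical value of Dixon's test), where chance gives about 1 in 20. In *Kmt2a*-HET replicate 3 these were *Dnah1* (226.5 normalised counts), *Gaa* (11480.3), *Tcfl5* (5.592), *Neurog2* (9.319), *D1Pas1* (0.9319) and *Gabre* (10.25). In *Kmt2a*-HET replicate 1 it was *Cyct* (2.193). In DM they were *Gm45441* in replicate 1 (313.9), *Mc3r* in replicate 2 (7.402) and *2210418O10Rik* in replicate 4 (6.256). For *Tcfl5*, *D1Pas1* and *Cyct* the other *Kmt2a*-HET libraries were at 0.

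The estimates of *Gm22820* and *2210418O10Rik* had opposite signs in the 2 pairs of genotypes, although neither gene was called in *Kdm5c*-KO against WT (DESeq2 log2 fold changes 1.58 and 0.96, adjusted *p* = 0.815 and 0.979). The log2 difference between DM against *Kmt2a*-HET and *Kdm5c*-KO against WT was -7.19 for *Gm22820* (unadjusted *p* = 5.77e-05) and -7.29 for *2210418O10Rik* (unadjusted *p* = 0.00127), with adjusted *p* values of 1 in the DESeq2 interaction test. Both estimates rest on libraries with counts of 0 and depend on the fitted means there.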

How the results depend on the processing

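The number of genes called in DM against *Kmt2a*-HET was 117. It was 54 with edgeR, 3 with ERCC size factors, 437 with a replicate block (141 with the block and a low-count filter), 51 with the block in edgeR and 213 with a term for replicate 1, and 79 to 110 when 1 of its 8 libraries was left out. For *Kdm5c*-KO against WT (195) the same settings gave 70, 17, 504, 57 and 300, and leaving out 1 library gave 109 to 290, with changes of over 1.5 times without WT replicates 2 or 4 (109 and 119) or *Kdm5c*-KO replicates 1 or 3 (125 and 119). The interaction called 68 genes with the block, 0 with the block and a low-count filter, 0 with the block in edgeR, 20 with a term for replicate 1 and 0 to 2 when any 1 of the 16 libraries was left out. Of the 117 genes, the number also called in *Kdm5c*-KO against WT was 14 with ERCC size factors, 37 with the block in edgeR and 53 to 61 when 1 library was left out. The causes were not tested. ERCC size factors moved the median log2 fold change of all genes to -0.448, under which 92 of the 102 higher and all 15 lower genes kept their sign, and they gave *Pnma3* a log2 fold change of -0.02. Only 2 of the 117 genes, *Tex14* and *Cacng6*, were still called with ERCC size factors. *Dnah1*, *Rps4l*, *Pnck*, *Ido2* and *Gaa* were not. *Tmem72* was at -0.45 without DM replicates 2 and 4. Of the 102 higher genes 58 were called in each of the 8 fits that left out 1 library of the comparison, and of the 15 lower genes 1 (*Alox8*).

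Same-numbered *Kmt2a*-HET and DM libraries had correlations of 0.4, -0.0489, -0.0973 and 0.166 between their deviations, and since not all 4 were over 0.1 the numbers were not taken as pairs. The value of replicate 1 was the highest of all 16 pairings, while not every library correlated best with its own number. Of the 117 genes 111 were among the 437 called with the block.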
